A study of Mus musculus with 30 samples.

Results

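The genes described here are 52 interferon-stimulated genes, taken by symbol out of the 46113 genes of the count tables. Their list was drawn up with earlier results of these data known. Counts of its genes beside the shares of all genes therefore describe the list and do not test it. Of the 52 genes, 50 could be measured, and Mx1 and Mx2 have no annotated exon and could not be measured. Their mRNA was measured in 30 libraries of 100 sorted bone marrow cells each, from C57BL/6 mice of 8 to 10 weeks. The 5-FU experiment compared haematopoietic stem cells (HSCs, sorted as CD150+CD48-EPCR+Lineage-) of untreated mice (4 libraries) with HSCs sorted 6 days (4 libraries) and 10 days (6 libraries) after 5-fluorouracil (5-FU), an antimetabolite that is toxic to cycling cells. The culture experiment compared HSCs of untreated mice cultured for 1 day (4 libraries) with uncultured ones (4 libraries). The CD48 experiment compared CD48+ progenitors (HPCs, CD150+CD48+EPCR+Lineage-, 4 libraries) with CD48- HSCs (4 libraries), both sorted 10 days after 5-FU. The labels do not say whether libraries of a group came from separate mice, so p-values measure only the spread between these libraries.

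Interferons are secreted antiviral cytokines. Type I interferons (alpha, beta and relatives) bind the receptor Ifnar1/Ifnar2 and lead to transcription from interferon-stimulated response elements (ISREs), whereas interferon-gamma binds Ifngr1/Ifngr2 and leads to transcription from gamma-activated sites (GAS). HSCs carry both receptors, and either cytokine can drive quiescent mouse HSCs into division. The genes were read in 2 classes. The type I class has 38 listed and 36 measured members, namely antiviral effectors (such as the Oas enzymes, which make the messenger that activates RNase L, and the Ifit proteins, which bind viral RNA), the RNA sensors Ddx58, Ifih1 and Dhx58, and the factors Irf7, Irf9 and Stat2. The interferon-gamma class has 8 members, all GTPases of cell-autonomous defence: the guanylate-binding proteins Gbp2, Gbp3 and Gbp7 and the immunity-related GTPases (IRGs) Igtp, Irgm1, Irgm2, Iigp1 and Ifi47. Iigp1 is an effector at the vacuoles of intracellular pathogens, and Igtp, Irgm1 and Irgm2 are regulators that sit on host membranes. The other 6 answer to both cytokines and were kept apart: the factor Irf1, the peptide transporter subunit Tap1, the immunoproteasome subunits Psmb8 and Psmb9, and the chemokines Cxcl9 and Cxcl10. The classes overlap, since type I interferon also raises GBP and IRG genes.

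The promoters of 4 GTPases, 3 type I genes and Irf1 are printed as examples that hold a match to these elements. Neither element was confined to 1 class, and 12 of the 27 type I genes with a promoter window held neither. Each line gives the 120 bases before the RefSeq start (GRCm38.p6), 5′ to 3′ on the gene's strand, with capitals marking ISRE cores (GAAA, any 2 bases, GAAA) and GAS elements (TTCNNNGAA) on either strand.
Isg15 (chr4:156200819-156200938, minus strand): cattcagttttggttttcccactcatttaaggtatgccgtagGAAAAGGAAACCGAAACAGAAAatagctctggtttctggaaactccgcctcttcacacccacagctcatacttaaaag
Ifit1 (chr19:34640769-34640888, plus strand): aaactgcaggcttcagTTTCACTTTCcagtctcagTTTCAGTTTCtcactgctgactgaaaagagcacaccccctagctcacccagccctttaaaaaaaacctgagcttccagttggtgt
Oas3 (chr5:120777660-120777779, minus strand): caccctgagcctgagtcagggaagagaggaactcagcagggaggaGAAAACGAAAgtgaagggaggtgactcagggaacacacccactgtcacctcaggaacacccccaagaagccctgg
Gbp2 (chr3:142620543-142620662, plus strand): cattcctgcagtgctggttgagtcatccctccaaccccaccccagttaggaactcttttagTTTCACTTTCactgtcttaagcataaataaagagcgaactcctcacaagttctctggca
Gbp7 (chr3:142530216-142530335, plus strand): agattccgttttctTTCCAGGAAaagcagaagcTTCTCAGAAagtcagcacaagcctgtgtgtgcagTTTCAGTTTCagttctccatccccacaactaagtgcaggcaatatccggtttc
Igtp (chr11:58199436-58199555, plus strand): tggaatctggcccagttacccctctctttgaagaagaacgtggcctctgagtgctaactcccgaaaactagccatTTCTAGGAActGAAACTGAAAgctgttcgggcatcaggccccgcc
Irgm2 (chr11:58214857-58214976, plus strand): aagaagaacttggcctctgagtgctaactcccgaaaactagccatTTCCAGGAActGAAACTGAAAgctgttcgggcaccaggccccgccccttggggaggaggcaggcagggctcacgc
Irf1 (chr11:53769894-53770013, plus strand): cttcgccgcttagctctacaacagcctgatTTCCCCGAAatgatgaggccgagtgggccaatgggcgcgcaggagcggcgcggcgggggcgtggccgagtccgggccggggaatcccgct
Isg15, a ubiquitin-like modifier, holds 3 overlapping ISRE cores, Ifit1 holds 2 and Oas3 1, and none of these 3 stretches holds a GAS element. Gbp7 holds 1 ISRE core and 2 GAS elements, Igtp and Irgm2 each hold 1 of either kind, Gbp2 holds an ISRE core alone and Irf1 a GAS element alone. The Igtp and Irgm2 stretches are near copies: over the 90 bases in which they overlap, 87 are identical.

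RefSeq promoter windows of 300 bases were found for 40 of the 52 members. An ISRE core lay in 19 of the 40 (47.5%), against 3.99% of all genes with a window, and a GAS element in 11 (27.5%), against 9.55% of all genes. By class, 12 of 27 type I genes (44.4%) and 6 of 7 GBP and IRG genes (85.7%) held an ISRE core. A GAS element lay in 6 of 27 type I genes (22.2%) and in 3 of 7 GBP and IRG genes (Gbp7, Igtp and Irgm2). All 3 of these also held an ISRE core, while Gbp2, Gbp3 and Irgm1 held an ISRE core without a GAS element, and Ifi47 held neither. These are matches of letters in a window, not measured binding sites.

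Transcripts of the cytokines themselves were almost absent. The 11 ligand genes looked for had 288 exon reads in all 30 libraries together, of which 134 were of Ifnk and 138 of Ifnz. Ifng had 2 reads, both in 1 library, Ifnb1 had 1 read, and Ifnl2 and Ifnl3 had 0. The receptor genes were expressed: in untreated HSCs the mean level was 207 CPM (reads scaled to a TMM-adjusted library of 1000000 reads) for Ifnar1, 66.9 for Ifnar2, 84.3 for Ifngr1 and 30.1 for Ifngr2. The receptor of lambda interferons, Ifnlr1, stayed under 1 CPM in every library.

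Most of the genes were on in HSCs of untreated mice. Of the 50 measured, 48 had at least 1 CPM in all 4 untreated libraries, and 47 had it in all 30 libraries. Per kilobase of exon, the highest mean levels in untreated HSCs were those of the membrane protein Ly6e (143 CPM per kb), the secreted glycoprotein Lgals3bp (123), Tap1 (82.9), Psmb9 (77.4) and Psmb8 (76.8). The lowest were Ifit2 (3.31 CPM per kb), Ifit3 (0.93), Cxcl10 (0.319) and Cxcl9 (0.0693). Genes of antigen processing and several antiviral genes therefore had readily counted transcripts before any treatment, while the chemokines were near the limit of detection, which is 3 reads or 0.245 to 0.576 CPM depending on the library.

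Libraries held 5208722 to 12243208 exon reads and 14158 to 15406 detected genes. All 12 HSC markers were detected in every group, and Cd48, the sort marker, stood at 45.7 to 56.4 CPM in HPCs and at 1.27 to 5.1 CPM in the CD48- HSCs sorted beside them. Reads of 7 members (Igtp, Irgm1, Irgm2, Ifi47, Tap1, Psmb8 and Psmb9) are split over alternate copies of the gene in the annotation and were summed, and 0 to 7.95% of their reads were unique, so their levels depend on how shared reads were assigned. Unique shares were also low for Isg15 (9.8%), Ifit1 (6.5%), Cxcl10 (13.2%) and Ifi27 (30%), and they were at least 90% for 32 of the 50. The day-10 library of replicate 6 stood apart from the other 5 for most of these genes. The main results that rest on it are therefore given with and without it, or with values by library.

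**Figure D1:**
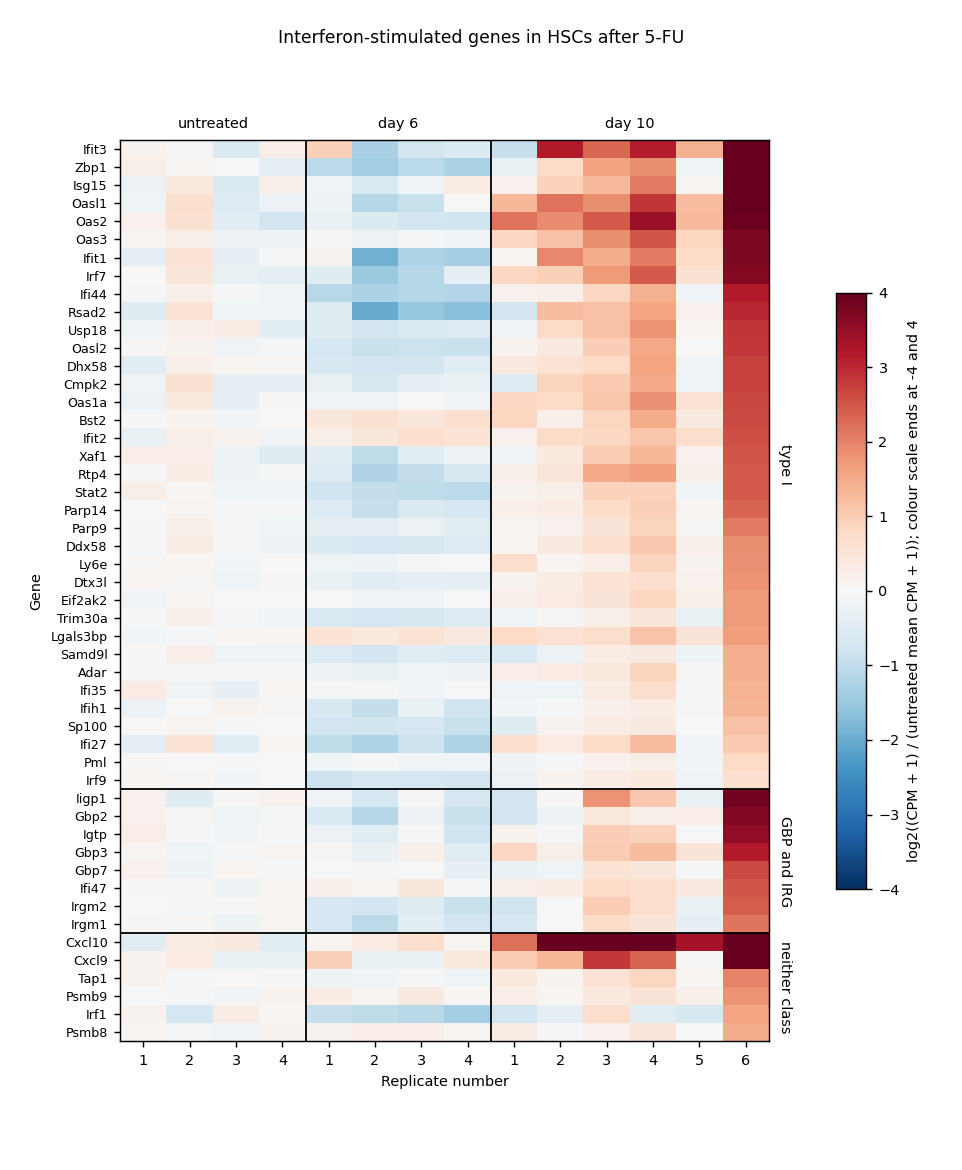
Each row is a measured gene, grouped by class, and each column a library of the 5-FU experiment; colour is the log2 ratio to the mean of untreated HSCs. Among the day-10 columns replicate 6 is highest for 49 of 50 genes, replicates 3 and 4 mostly come next, and the 4 day-6 columns are mostly blue, below the untreated mean.

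At day 10 after 5-FU, HSCs had more of these transcripts than HSCs of untreated mice. The edgeR quasi-likelihood test, with p-values adjusted by Benjamini-Hochberg over all genes, called 34 of the 50 higher (68%), where 19.9% of all genes tested were called higher. It called 0 lower, where 18.1% of all genes were called lower, and there were also 0 lower at an unadjusted p under 0.05 and 0 by DESeq2. All 50 fitted changes were above 0, with a median log2 change of 1.15, against -0.00 for all genes. Called genes were 28 of 36 in the type I class (median log2 change 1.27), 3 of 8 among the GTPases (1.34) and 3 of 6 in neither class (0.76). The groups did not overlap in CPM for 14 of the 50 (28%), all higher at day 10, where 11.8% of all genes did so. In bulk libraries like these, a larger share of cells expressing a gene and more RNA per cell cannot be told apart.

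Of the 30 antiviral effectors, 24 were called higher. The Oas family is an example. Oas2 (chr5:120730333-120749874, mm10) had 136, 275 and 833 CPM as lowest, median and highest of the 6 day-10 libraries, and 61.7, 83.5, 40.7 and 32 CPM in untreated HSCs. Oas3 (chr5:120753098-120777659) had 141, 236 and 1070 CPM at day 10, and 86.2, 93.4, 67.7 and 69.4 CPM in untreated HSCs. Both genes were higher in every day-10 library than in every untreated one. The log2 change was 2.83 ± 0.47 (SE, adjusted p = 0.000276) for Oas2 and 2.27 ± 0.50 (adjusted p = 0.00252) for Oas3. Their relative Oasl2 overlapped with untreated HSCs: 100.0, 160.4 and 711 CPM at day 10, against 103, 109, 88.6 and 93.8 CPM in untreated HSCs (log2 change 1.37 ± 0.45, adjusted p = 0.0265).

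Genes at high levels in untreated HSCs were also among those called. Lgals3bp had 383, 451 and 849 CPM at day 10 (lowest, median, highest), against 247, 249.7, 279.6 and 287 CPM in untreated HSCs (0.96 ± 0.18, adjusted p = 0.000764). Ly6e had 351, 464 and 1161 CPM, against 339, 347, 306 and 325 CPM (0.79 ± 0.27, adjusted p = 0.0286). Neither overlapped between the groups. The RNA-editing enzyme Adar had 298, 375 and 788 CPM at day 10, against 300.2, 299.8, 277 and 275 CPM in untreated HSCs (0.65 ± 0.21, adjusted p = 0.0212). Unlike them, Adar overlapped. The E3 ubiquitin ligase Dtx3l had 284, 345 and 894 CPM, against 269, 266, 229 and 265 CPM (0.73 ± 0.26, adjusted p = 0.0366). The ADP-ribosyltransferase Parp14 had 191, 255 and 876 CPM, against 177, 189.7, 165 and 170.4 CPM (1.01 ± 0.35, adjusted p = 0.0328). Both were higher in every day-10 library, Parp14 by little in its lowest. Trim30a, a tripartite motif protein, did not pass (180.0, 244 and 721 CPM, against 214, 257, 212 and 207 CPM; adjusted p = 0.196), nor did the nuclear body proteins Sp100 (53.7, 88.5 and 175 CPM, against 75.9, 81.9, 71.6 and 76 CPM; adjusted p = 0.242) and Pml (469, 559.8 and 942 CPM, against 565, 544, 529.5 and 541 CPM; adjusted p = 0.381).

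Among sensors and factors the change was uneven. Ddx58 (RIG-I) had 171, 232 and 589 CPM at day 10, against 155, 199, 152 and 139.7 CPM in untreated HSCs (0.86 ± 0.28, adjusted p = 0.0247). Dhx58, its relative without a signalling domain, had 34.3, 62.1 and 260.3 CPM, against 27.3, 44.2, 41.3 and 38.8 CPM (1.36 ± 0.45, adjusted p = 0.026). Ifih1 (MDA5) had 68.1, 77.8 and 192 CPM, against 62.6, 74.6, 80.4 and 76.5 CPM, and did not pass (adjusted p = 0.252). All 3 sensors overlapped between the groups. Irf7 (chr7:141263183-141266499), the factor that amplifies type I interferon output, had 45, 77.3 and 382 CPM at day 10, against 29.3, 41.6, 23.4 and 22.4 CPM in untreated HSCs. It was higher in every day-10 library (2.19 ± 0.55, adjusted p = 0.00601). Other factors had smaller fitted changes. Stat2 had 71.3, 119 and 427 CPM, against 90.5, 80.9, 67.9 and 69.5 CPM (1.07 ± 0.40, adjusted p = 0.0454). Irf9 had 91.1, 126 and 170.0 CPM, against 114, 111, 100.4 and 106 CPM (0.22 ± 0.14, adjusted p = 0.218). Irf1 had 92.2, 117 and 467 CPM, against 171, 96, 193 and 163 CPM (0.30 ± 0.39, adjusted p = 0.581). For Irf1 the day-10 median lay below 3 of the 4 untreated values.

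Of the GTPases, Gbp3, Ifi47 and Igtp passed. Gbp3 had 55.1, 90.7 and 431 CPM at day 10, against 50.7, 41.7, 45.4 and 50.7 CPM in untreated HSCs, without overlap (1.59 ± 0.48, adjusted p = 0.017). Ifi47 had 113, 141 and 558 CPM, against 99.1, 99.6, 84.9 and 104 CPM, again without overlap (1.09 ± 0.38, adjusted p = 0.0354). Igtp (chr11:58199556-58207592) had 85.5, 131 and 1037 CPM, against 105, 82.5, 80.9 and 83 CPM, and overlapped (1.65 ± 0.63, adjusted p = 0.0495). Gbp2 (chr3:142620663-142638008) had 48.5, 95.8 and 1078 CPM, against 92.6, 83.8, 72.3 and 77 CPM, and Gbp7 had 196, 272 and 1476 CPM, against 267, 206, 249 and 221 CPM. Neither passed (adjusted p = 0.0968 and 0.123), although Gbp2 had a fitted log2 change of 1.62 ± 0.74, larger than that of Gbp3.

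Tap1 rose by 0.84 ± 0.29 (adjusted p = 0.0326), with 260.2, 345 and 959 CPM at day 10 and 272, 231, 239 and 235 CPM in untreated HSCs. The immunoproteasome subunits did not pass: Psmb8 had 91.2, 111 and 266 CPM, against 101, 89.2, 82.6 and 103 CPM (adjusted p = 0.0981), and Psmb9 had 87.6, 102 and 288 CPM, against 82.4, 80.2, 75.7 and 90 CPM (adjusted p = 0.0598). Cxcl10 (chr5:92346638-92348889) had 5.22, 43.6 and 502 CPM at day 10, against 0, 0.657, 0.748 and 0 CPM in untreated HSCs, and was higher in every day-10 library (adjusted p = 0.000872). Cxcl9, the other chemokine that calls T and NK cells through Cxcr3, had 0.245, 3.51 and 135 CPM, against 0.312, 0.493, 0 and 0 CPM (adjusted p = 0.0122), and overlapped. It passed the filter on low counts only with day-10 replicate 6 in the fit, so its call, counted above, rests on that library. Cxcl10 passed that filter only with day-10 libraries in the fit, and was not tested with day-6 and untreated libraries alone. It thus entered the test through the group in which it was high. No fold is given for the chemokines, since each of them had no read in 2 of the 4 untreated libraries. Other effectors at low levels in untreated HSCs also rose, such as Ifit3 (0.846, 23.1 and 101 CPM, against 2.81, 2.63, 1.31 and 3.16 CPM; adjusted p = 0.00728) and Isg15 (chr4:156199424-156200818; 4.04, 9.48 and 88.1 CPM, against 3.12, 5.26, 2.24 and 4.59 CPM; adjusted p = 0.0208), and both overlapped with untreated HSCs.

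**Figure D2:**
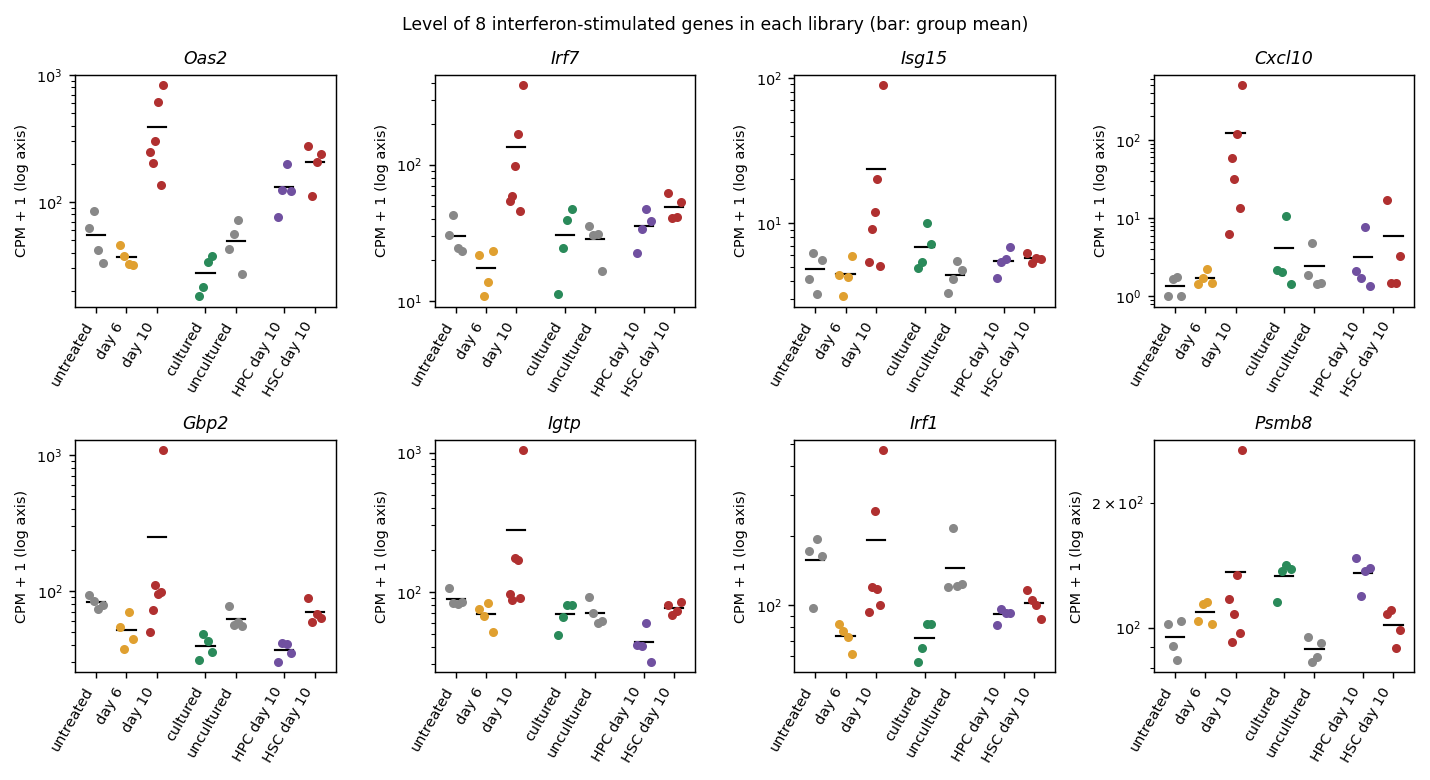
Points are CPM + 1 per library (log axis) of 8 genes in the 7 groups, and bars are group means. In the 5-FU experiment the points of day 10 spread widely, with replicate 6 highest for all 8, from 88.1 CPM for Isg15 to 1078 CPM for Gbp2, while the points of the other groups lie closer together.

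Without day-10 replicate 6 the medians of the type I and GTPase classes were no longer alike. In that fit 28 of 49 genes tested were called higher at day 10, where 18.6% of all genes were. In the type I class 23 genes were still called and the median log2 change was 0.70, while among the GTPases 2 were called (Gbp3 and Ifi47) and the median was 0.37. Gbp2 had a log2 change of 0.05 ± 0.20 without replicate 6 (adjusted p = 0.872), Gbp7 one of 0.14, Igtp one of 0.48 (adjusted p = 0.0959) and Iigp1 one of 0.68. The difference between the classes was not tested. The count also depended on single untreated libraries: it was 15 without untreated replicate 1 or 3, 17 without replicate 4 and 25 without replicate 2. The shares of all genes in those fits are not given here. Genes called in every fit with 1 library left out, where tested, were 14: Bst2, Cxcl10, Cxcl9, Gbp3, Ifit1, Ifit2, Ifit3, Irf7, Lgals3bp, Oas1a, Oas2, Oas3, Oasl1 and Rtp4. Of these, Cxcl9 was not among the 49 genes tested without day-10 replicate 6. In the other day-10 libraries it had 0.245 to 7.46 CPM. With the untreated and day-10 libraries fitted alone, without day 6, 19 were called higher, where 16.8% of all genes were.

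The 6 day-10 libraries did not share 1 level of these genes. The median log2 ratio of the type I class to the untreated mean was 0.14, 0.36, 0.83, 1.28, 0.11 and 2.49 in replicates 1 to 6. For the GTPases it was -0.48, -0.01, 0.87, 0.68, -0.04 and 2.90. For the GTPases replicate 1 thus lay below untreated HSCs, replicates 2 and 5 were level with them, and replicates 3, 4 and 6 lay above. Counted against all 4 untreated libraries at once, 21, 32, 49, 49, 19 and 50 of the 50 genes were above in replicates 1 to 6, where 27.6 to 33.9% of all genes were.

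Replicate 6 held the highest day-10 value for 49 of the 50 genes (98%), and for 20.7% of all genes tested. The exception was Ifi27, at 103, 78.3, 108, 147, 58.1 and 130.2 CPM in replicates 1 to 6. Relative to the median of the other 5 day-10 libraries, replicate 6 was higher by a median of 6.02-fold over the GTPases (range 4.51 to 14.2), 3.61-fold over the type I genes (1.27 to 13.5) and 0.994-fold over all genes. It exceeded that median at least 4-fold for 8 of 8 GTPases, 15 of 36 type I genes and 26 of 50 genes in all (52%), and for 121 of 12886 genes tested (0.939%). Gbp2, for instance, had 48.5, 70.9, 109, 94.2, 97.3 and 1078 CPM in replicates 1 to 6. Summed over each class, replicate 6 had 15126 CPM of type I genes, against 3929 to 7657 CPM in the other 5, and 6244 CPM of GTPases, against 673 to 1401 CPM in the other 5.

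Below replicate 6 the classes ranked the libraries differently. For 33 of 36 type I genes replicate 4 held the second highest value, and for 7 of 8 GTPases replicate 3 did, Gbp3 being the exception. Replicate 4 exceeded replicate 3 for 35 of 36 type I genes (median log2 ratio 0.42) and for 1 of 8 GTPases (median -0.15), and over all genes 6559 were higher in replicate 4 and 6321 in replicate 3. Oas2, a type I gene, had 609 CPM in replicate 4 and 304 CPM in replicate 3, Irf7 had 166 and 97.3 CPM, and Ddx58 had 341 and 256 CPM. Iigp1, a GTPase, had 116 CPM in replicate 4 and 191 CPM in replicate 3, Irgm2 had 137 and 175 CPM, and Gbp7 had 324 and 343 CPM. Irf1, of neither class, had 116 CPM in replicate 4 and 255 CPM in replicate 3. These are values of single libraries, with no replicate check.

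**Figure D3:**
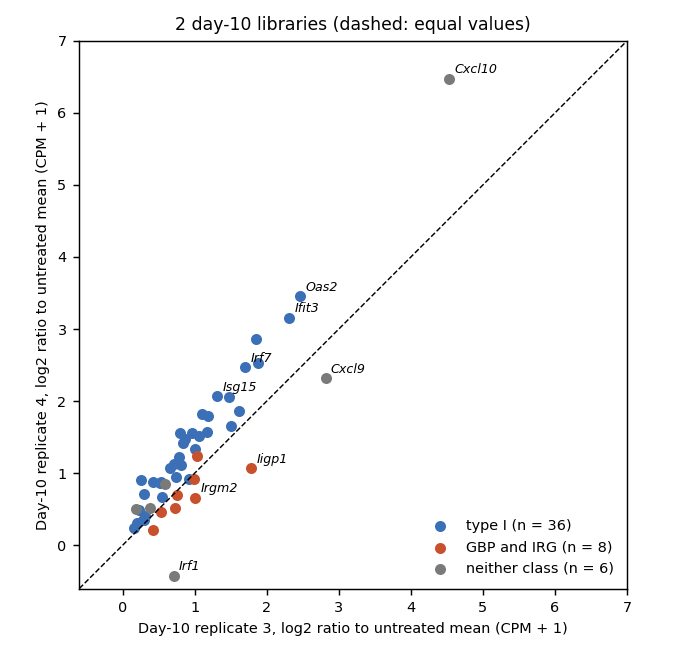
Each point is a gene, with its log2 ratio to the untreated mean in day-10 replicate 4 (vertical) and in day-10 replicate 3 (horizontal), and colours for the classes. Type I points lie on the replicate 4 side of the line of equal levels for 35 of 36 genes, and GTPase points on the replicate 3 side for 7 of 8.

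The spread at day 10 was wider for these genes than for the rest of the transcriptome, and wider than in other groups. The median SD of log2 CPM over the 6 day-10 libraries was 0.871 for the type I class, 1.12 for the GTPases and 0.221 for all genes. Without replicate 6 it was 0.491, 0.49 and 0.206. In untreated HSCs it was 0.215 for the type I class and 0.145 for the GTPases, against 0.205 for all genes, and in day-6 HSCs 0.127 and 0.266, against 0.153. Cultured HSCs came next after day 10, at 0.37 for the type I class, against 0.138 for all genes. No test was made on these spreads.

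Markers of other cells and of division also differed among the day-10 libraries. The summed level of 12 macrophage markers was 139.7, 126, 317, 301, 127 and 147 CPM in replicates 1 to 6, and 46.2 to 69.7 CPM in untreated HSCs, and 5 of 11 tested were called higher at day 10. It was highest in replicates 3 and 4, the libraries next to replicate 6 in the interferon-stimulated genes. The sum of 9 NK and T cell markers was 63, 53.1, 43.8, 48.9, 35.9 and 25.1 CPM in replicates 1 to 6, lowest in replicate 6, and 15 to 30.6 CPM in untreated HSCs. Of these, Nkg7 (22.2 CPM at day 10, against 10.4 CPM in untreated HSCs; adjusted p = 0.0325) and Klrb1c (22.6 CPM, against 11.7 CPM; adjusted p = 0.0134) rose, and Gzma, Ncr1, Cd3e and Trac were at 0 in all 6 day-10 libraries. The sum of 6 plasmacytoid dendritic cell markers was 268, 296, 299.8, 296, 278 and 354 CPM in replicates 1 to 6, highest in replicate 6, and 230.4 to 316 CPM in untreated HSCs. Most of it was Tcf4, at 288 CPM in replicate 6 and 243 to 269.8 CPM in the other 5. Irf8, itself raised by interferon-gamma, was at 62.9 CPM in replicate 6 and at 20.2 to 36.1 CPM in the other 5, while Klk1 and Siglech were at 0 in replicate 6. Cycling genes summed to 885, 657, 758, 761, 784 and 1042 CPM in replicates 1 to 6, highest in replicate 6, against 153 to 450.2 CPM in untreated HSCs. Erythroid markers summed to 20.9 to 73.1 CPM at day 10, against 1642 to 4125 CPM in untreated HSCs. The part of other cells and of the cell cycle in the day-10 values was not tested.

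At day 6 the medians of the type I and GTPase classes lay below untreated HSCs, and few single genes passed. The test called 0 of the 50 higher, where 25.7% of all genes were (1 at an unadjusted p under 0.05 and 1 by DESeq2, Lgals3bp in both), and 4 lower, where also 25.7% of all genes were. Values without overlap were more frequent: 24 of 50 genes (48%) were lower in every day-6 library than in every untreated one, where 24.6% of all genes were, and 2 (Lgals3bp and Bst2) were higher in every one, where 23.9% were. Median log2 changes were -0.58 for the type I class, -0.36 for the GTPases and -0.04 for all genes.

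The 4 genes that fell were Irf9, Ifi27, Sp100 and Irf1. Irf9 (chr14:55603985-55610030) had 59.6, 65.2, 65.9 and 65 CPM at day 6, against 114, 111, 100.4 and 106 CPM in untreated HSCs (-0.75 ± 0.15, adjusted p = 0.000784). Ifi27 (chr12:103434182-103440245) had 30.4, 25.6, 33.8 and 25.6 CPM, against 47, 91.4, 44.9 and 65.6 CPM (-1.11 ± 0.27, adjusted p = 0.00282). Sp100 had 44.3, 43.9, 47.6 and 40.5 CPM, against 75.9, 81.9, 71.6 and 76 CPM (-0.79 ± 0.25, adjusted p = 0.0142). Irf1 (chr11:53770014-53778374) had 81.6, 76.2, 71.9 and 60.4 CPM, against 171, 96, 193 and 163 CPM (-1.10 ± 0.44, adjusted p = 0.0457). None of the 4 overlapped between the groups. The call of Irf1 was lost without 1 library, for 7 of the 8 libraries compared (adjusted p of 0.0322 to 0.102), and those of the other 3 held without each of the 8.

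Many type I genes were lower in all 4 day-6 libraries without passing. Stat2 had 43.8, 39.5, 38 and 36.6 CPM, against 90.5, 80.9, 67.9 and 69.5 CPM (-0.97 ± 0.44, adjusted p = 0.0764), Trim30a had 147, 135, 141 and 157 CPM, against 214, 257, 212 and 207 CPM (-0.62 ± 0.33, adjusted p = 0.129), and Ddx58 had 110.3, 99.8, 103 and 112 CPM, against 155, 199, 152 and 139.7 CPM (-0.60 ± 0.30, adjusted p = 0.107). In that fit, the spread of a gene is estimated over all 3 groups, so the wide day-10 spread enters the error. With the day-6 and untreated libraries fitted alone, 25 of 48 genes were called lower, where 27.7% of all genes were, and 4 higher, where 27% were. Lgals3bp, at 387, 350.3, 389.8 and 345 CPM at day 6, against 247, 249.7, 279.6 and 287 CPM in untreated HSCs, did not pass (0.47 ± 0.19, adjusted p = 0.0534). Macrophage markers summed to 641, 86.2, 56.1 and 196 CPM in the 4 day-6 libraries, and 10 of 11 were called higher than in untreated HSCs; their part in these values was not tested.

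Set against day 6, day-10 HSCs had 42 of 50 genes higher (84%), where 14.7% of all genes were, and 0 lower, where 15.9% were (0 at an unadjusted p under 0.05 and 0 by DESeq2). The groups did not overlap for 30 genes (60%), where 10.3% of all genes were higher in every day-10 library. This comparison shares its day-10 libraries with the one above and is not independent of it. The median log2 change was 1.71 in the type I class (32 of 36 higher) and 1.65 among the GTPases (6 of 8 higher). Without replicate 6, 39 of 49 were called higher, where 14.1% of all genes were, with medians of 1.15 and 0.82.

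The smallest p was that of Ifi27, with 58.1, 105 and 147 CPM at day 10 (lowest, median, highest), against 30.4, 25.6, 33.8 and 25.6 CPM at day 6 (1.85 ± 0.25, adjusted p = 0.000158). Oas2 at day 10 was at 136 CPM or more, against 45, 36.8, 31.6 and 30.7 CPM at day 6 (3.43 ± 0.48, adjusted p = 0.000182). Irf9 at day 10 was at 91.1 CPM or more, against 59.6, 65.2, 65.9 and 65 CPM at day 6 (0.98 ± 0.14, adjusted p = 0.000231). Irf9 and Irf1 fell at day 6 and were higher at day 10 than at day 6, while at day 10 neither passed against untreated HSCs. Genes that did not pass between day 10 and day 6 were Ifit2, Bst2, Pml, Psmb8, Psmb9, Ifi47, Gbp7 and Ifi35.

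**Figure D4:**
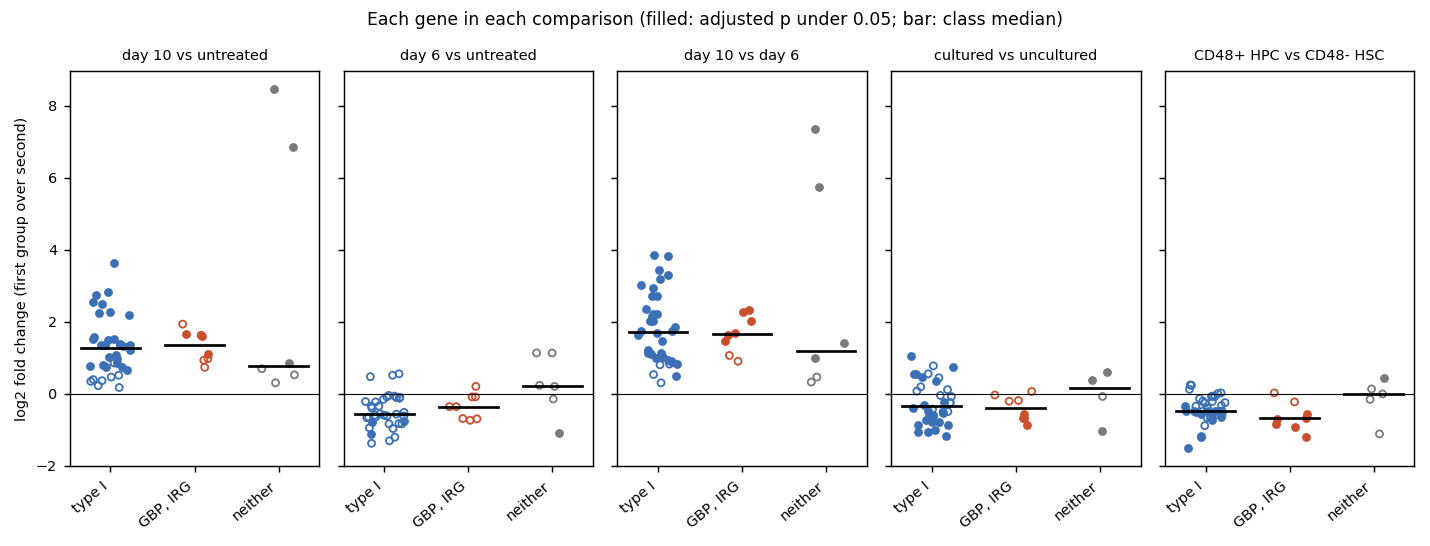
Points are fitted log2 changes of single genes in the 5 comparisons, by class, with filled points for adjusted p under 0.05 and bars for class medians. The type I and GBP and IRG medians lie above 0 in both day-10 comparisons, at 1.27 and 1.34 against untreated HSCs, and below 0 at day 6, in culture and in CD48+ HPCs.

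After 1 day of culture the genes moved in both directions. Of 48 tested, 8 were called higher (16.7%), where 33.8% of all genes were, and 22 lower (45.8%), where also 33.8% were. The type I class had 6 higher and 17 lower of 36 (median log2 change -0.35), and the GTPases 0 higher and 4 lower of 8 (median -0.40). The groups did not overlap for 13 lower genes (30.2% of all genes were lower in every cultured library) and 5 higher ones (31.9%). Psmb8 (chr17:34198195-34201454) had 114, 136, 140.2 and 137 CPM in cultured HSCs, against 94.1, 81.8, 84 and 90.8 CPM in uncultured ones (0.59 ± 0.09, adjusted p = 5.14e-05). Bst2 (tetherin, which holds budding virus at the membrane) had 51.7, 54.3, 90.9 and 109 CPM, against 38.7, 38.4, 34.2 and 36.6 CPM (1.04 ± 0.21, adjusted p = 0.000711). Lgals3bp had 392, 429.5, 428 and 462 CPM, against 336, 269.8, 308 and 256 CPM (0.55 ± 0.09, adjusted p = 0.000111). None of these 3 overlapped. Ly6e (0.46), Psmb9 (0.39), Ifit2 (0.55), Oas3 (0.74) and Ifi35 also rose.

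Trim30a, Irf9 and Dtx3l had the smallest p among the genes that fell. Trim30a (chr7:104409025-104465193) had 95.3, 111, 122 and 104 CPM in cultured HSCs, against 254, 213, 219 and 214 CPM in uncultured ones (-1.06 ± 0.09, adjusted p = 4.24e-07). Irf9 had 50.3, 50.5, 65.1 and 54.6 CPM, against 115, 103, 118 and 108 CPM (-1.01 ± 0.10, adjusted p = 1.19e-06). Dtx3l had 155, 165, 175 and 171 CPM, against 238, 239, 234 and 249.9 CPM (-0.53 ± 0.06, adjusted p = 9.51e-06). All 3 were lower in every cultured library. Irf1 had 55.9, 63.9, 81.5 and 82 CPM, against 119, 214, 119.6 and 123 CPM (-1.03 ± 0.19, adjusted p = 0.000405). The sensors Ddx58 (-0.62) and Ifih1 (-0.86) also fell, as did Parp14 (-0.72) and Sp100 (-0.80). Among the GTPases Gbp7 had 152, 171, 164 and 151 CPM, against 251, 233, 262 and 209 CPM (-0.58 ± 0.08, adjusted p = 3.56e-05), Gbp2 fell by 0.67, Irgm2 by 0.86 and Iigp1 by 0.68, whereas Igtp (-0.04), Gbp3 (0.06), Irgm1 (-0.21) and Ifi47 (-0.19) did not pass.

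Within the Oas family, Oas2 had 17.1, 20.5, 32.9 and 36.8 CPM in cultured HSCs, against 41.4, 54.9, 71.1 and 26.1 CPM in uncultured ones (-0.86 ± 0.29, adjusted p = 0.0195), and Oas3 had 81.5, 118, 178 and 204 CPM, against 106, 78.4, 109.7 and 54.4 CPM (0.74 ± 0.27, adjusted p = 0.026). Both overlapped between the groups, and each lost its call without 1 library for 3 of the 8 libraries (adjusted p up to 0.0755 for Oas2 and 0.101 for Oas3). Cultured replicate 3 stood apart for some genes, with 49.5 CPM of Ifit1, against 1.74, 4.41 and 3.34 CPM in the other cultured libraries and 16.8, 20.8, 15 and 16 CPM in uncultured HSCs. Rsad2 (viperin) had 44.6 CPM in that library, against 5.09, 12.8 and 4.88 CPM in the other cultured ones. Neither Ifit1 nor Rsad2 passed (adjusted p = 0.787 and 0.442), and outside replicate 3 both were lower in cultured than in uncultured libraries. All 5 receptor genes tested fell, where 33.8% of all genes did, among them Ifngr1 (46.9, 47.8, 50.4 and 41.2 CPM, against 149.6, 99.2, 117 and 117 CPM; -1.37 ± 0.12, adjusted p = 5.55e-07) and Ifnar1 (140.0, 149, 122 and 121 CPM, against 234, 216, 191 and 235 CPM; -0.72 ± 0.09, adjusted p = 1.56e-05). Other cells and division moved with culture too: cycling genes summed to 1269 to 1384 CPM in cultured HSCs, against 151 to 499 CPM in uncultured ones. Macrophage markers summed to 28.6 to 35.8 CPM, against 43.5 to 56.8 CPM, with C1qb and Vcam1 at 0 in all cultured libraries. Of the same list, Cd68 went the other way, with a mean of 25.1 CPM in cultured HSCs, against 10.1 CPM (1.31 ± 0.26, adjusted p = 0.000599). NK and T cell markers summed to 3.2 to 5.44 CPM, against 15.3 to 66 CPM, and erythroid markers to 18.2 to 46.6 CPM, against 8.9 to 3037 CPM. Their part in the result was not tested.

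In the CD48 experiment, CD48+ HPCs had less of these transcripts than CD48- HSCs of the same day. Of 49 genes tested, 20 were called lower (40.8%), where 12.5% of all genes were, and 1 higher (Psmb8), where 14% were. Lower genes were 14 of 36 in the type I class (median log2 change -0.48) and 6 of 8 among the GTPases (median -0.69). The groups did not overlap for 15 lower genes (13.2% of all genes were lower in every HPC library) and 2 higher ones (14%). Gbp7 (chr3:142530336-142550151) had 127, 145, 169.9 and 139.8 CPM in HPCs, against 228, 213, 254 and 252 CPM in HSCs (-0.70 ± 0.10, adjusted p = 0.000926). Gbp2 had 29.1, 40.6, 39.4 and 34.1 CPM, against 87.4, 57.7, 66 and 62.6 CPM (-0.93 ± 0.15, adjusted p = 0.00149). Gbp3 had 25.1, 25.6, 28.8 and 23.9 CPM, against 43.6, 42.7, 43.1 and 35.1 CPM (-0.67 ± 0.12, adjusted p = 0.00223). All 3 were lower in every HPC library. Igtp had 40.2, 39.9, 58.6 and 30.4 CPM, against 78.6, 66.7, 71.3 and 83.6 CPM (-0.83 ± 0.17, adjusted p = 0.00544), while Ifi47 had 98.4, 86.6, 112 and 81.1 CPM, against 102, 87.7, 77.8 and 107 CPM, and did not pass (0.02 ± 0.13, adjusted p = 0.944).

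Type I genes that fell in HPCs included Ddx58 (111, 144, 164 and 129 CPM in HPCs, against 218, 179, 188 and 198 CPM in HSCs; -0.52 ± 0.12, adjusted p = 0.00888), Rsad2 (10.5, 16.2, 26.5 and 12.3 CPM, against 47, 27.1, 48 and 28.1 CPM; -1.20 ± 0.29, adjusted p = 0.0117) and Oasl2 (50.2, 67, 89.2 and 58.5 CPM, against 115, 88.2, 108 and 125 CPM; -0.72 ± 0.17, adjusted p = 0.0095). Rsad2 and Ddx58 did not overlap, and Oasl2 did. Psmb8 had 146, 118, 136 and 138 CPM in HPCs, against 107, 109, 88.5 and 97.8 CPM in HSCs (0.42 ± 0.10, adjusted p = 0.00886). Tap1 differed by -0.01 ± 0.10 (adjusted p = 0.956). HPC replicate 3 was the highest of its group for many genes, for instance Iigp1 at 53 CPM, against 14, 13.3 and 12.1 CPM in the other HPC libraries, and Cxcl9 at 38 CPM, against 1.09, 0.626 and 0.561 CPM. That library also had the highest sum of macrophage markers, 1361 CPM against 519, 388 and 184 CPM in the other HPC libraries and 89.3 to 380.1 CPM in HSCs; 7 of 11 macrophage markers were called higher in HPCs. NK and T cell markers summed to 115 to 139.7 CPM in HPCs, against 31.1 to 65.1 CPM in HSCs. Most of the HPC sum was Nkg7 (mean 122 CPM, against 20.4 CPM in HSCs), while Klrb1c was lower in HPCs (4.59 CPM, against 24.1 CPM; adjusted p = 0.00154). Cycling genes summed to 1231 to 1341 CPM, against 415 to 731 CPM. The part of other cells and of division in the result was not tested, and without HPC replicate 3 the count of lower genes was 27. It was 11 without HSC replicate 1 and 13 without HPC replicate 1. The shares of all genes in these fits are not given here.

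Other genes of the pathway were read from a list, and their counts stand beside the shares of all genes at day 10 against untreated HSCs, 19.9% higher and 18.1% lower. Of the receptor genes, 3 of 5 were higher: Ifngr2 at 69.8, 65.2, 62.3, 58.9, 61.3 and 74.1 CPM in replicates 1 to 6, against 30.4, 25, 32.9 and 32.2 CPM (1.12 ± 0.11, adjusted p = 3.62e-06), Ifnar2 (0.59) and Ifnar1 (0.35). Replicate 6 was not apart from the others for Ifngr2. Among 9 kinases and factors 2 were higher, Stat3 (0.51) and Irf8 (1.11), and 1 lower, the kinase Jak1 (-0.30). Of 7 genes listed as inhibitors, which include the antiviral exonuclease Isg20, 2 were higher and 0 lower. Among the higher ones was Socs3, which blocks cytokine receptors (70.2 CPM, against 13 CPM in untreated HSCs; 2.42 ± 0.38, adjusted p = 0.000204). The counts of higher genes among the kinases and factors and among the inhibitors are near the share of all genes. Of 36 further interferon-stimulated genes tested, 15 were higher and 0 lower at day 10, with a median log2 change of 0.90. These values are with replicate 6 in the fit. The 39 genes of that list summed to 8978, 7429, 8946, 10598, 7000 and 20687 CPM in replicates 1 to 6, against 7820 to 8244 CPM in untreated HSCs. Replicates 2 and 5 thus lay below every untreated library in this sum. The guanylate-binding protein genes among them, Gbp4, Gbp5, Gbp6, Gbp8 and Gbp9, did not pass (adjusted p of 0.0502 to 0.822). Their log2 changes ranged from -0.18 (Gbp8) to 1.79 (Gbp5).

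At day 6, where 25.7% of all genes were called in each direction, those 36 genes had 1 higher and 7 lower, and 6 of the 9 kinases and factors were lower, among them Irf2 (-0.64), Jak2 (-0.39) and Stat3 (-0.46). In culture, where 33.8% of all genes were called in each direction, 7 of the 9 kinases and factors fell, and of 30 further interferon-stimulated genes tested 4 rose and 18 fell. The changes there ranged widely: the membrane protein gene Ifitm3 rose to 732 CPM in cultured HSCs, against 365 CPM in uncultured ones (1.00 ± 0.08, adjusted p = 1.93e-07), while Slfn5 fell to 3.09 CPM, against 31.3 CPM (-3.32 ± 0.29, adjusted p = 6.96e-07). Gbp4, Gbp5 and Gbp6, guanylate-binding proteins outside the list of 52, fell by 1.83, 1.87 and 1.89 on the log2 scale. In CD48+ HPCs, where 12.5% of all genes were lower and 14% higher, 17 of 34 further genes were lower and 0 higher, with Gbp6 at 5.97 CPM, against 27.3 CPM in CD48- HSCs (-2.19 ± 0.50, adjusted p = 0.00882). Among the kinases and factors there, Irf2 fell by 0.60.

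The groups that the labels describe alike did not have the same levels in different experiments. CD48- HSCs of the CD48 experiment, sorted like the day-10 HSCs of the 5-FU experiment, had a lower mean than those for 35 of 36 type I genes and 8 of 8 GTPases, with median log2 ratios of -0.88 and -1.55. With replicate 6 left out of the day-10 mean, 33 of 36 and 8 of 8 were still lower, with medians of -0.41 and -0.68. Beside untreated HSCs of the 5-FU experiment, the same CD48- HSCs had a higher mean for 28 of 36 type I genes (median 0.27) and a lower one for 7 of 8 GTPases (median -0.21). Oas2, for example, was at 274, 109.8, 204 and 239 CPM in those CD48- HSCs, and Gbp2 at 87.4, 57.7, 66 and 62.6 CPM. Uncultured HSCs were lower than untreated HSCs of the 5-FU experiment for 27 of 36 type I genes (median -0.11) and 7 of 8 GTPases (median -0.30). Experiment and group cannot be told apart here, and none of these differences was tested.

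Over the 7 groups, day-10 HSCs of the 5-FU experiment had the highest mean for 49 of the 50 genes, and the exception was Irf9, highest in CD48- HSCs of the CD48 experiment (141, 106, 143 and 150.3 CPM). Without day-10 replicate 6 the count was 43, and Irf1 was highest in untreated HSCs, Bst2 in cultured HSCs, Cxcl9 and Psmb8 in CD48+ HPCs, and Irf9, Eif2ak2 and Samd9l in those CD48- HSCs. In all libraries, the lowest mean was in day-6 HSCs for 16 genes, in cultured HSCs for 16, in uncultured HSCs for 9, in CD48+ HPCs for 6 and in untreated HSCs for 3.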

How the data were processed

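The deposited values are read counts per gene, 1 file per library, and per the file headers include the total exon reads used here. The submitters' processing notes name mm10; neither the aligner nor the counter is given in the sources used here. Counts were summed over entries of 1 gene identifier. Tests used R 4.3.3 and edgeR 4.0.16 (TMM, filterByExpr by group, quasi-likelihood F tests, 1 fit per experiment, Benjamini-Hochberg adjusted p under 0.05), and CPM use TMM-scaled sizes. Ratios of single libraries and of group means use a pseudocount of 1 CPM, SDs of log2 CPM a prior count of 2. Simulated counts were used to test the fits. Alternatives were DESeq2 1.42.0, RLE factors, no filter, unique reads, a replicate block, other sets of libraries in the fit and each library left out. Members and lists were chosen with earlier results of these data known. Values by library are given, in 1 comparison or more, for the 4 members (10 antiviral effectors) of highest mean level in each role and the 3 with the smallest p in each comparison; other genes were named after their values were seen. The main fits did not pair libraries by replicate number. In all 51 pairs of replicates counts differed by more than counting error. Intervals of depth cover counting error only.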

Additional observations from a re-analysis of the deposited data

Results flagged for a closer look

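Values that lie far from the rest of their group, by Dixon's test of the highest or lowest library against the group's range, were 46 among the described genes and the 2 class sums; chance alone marks about 1 in 20 groups tested.

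In day-10 HSCs, 24 of 31 values tested were marked, all as the highest and all in replicate 6. The type I sum was 15126 CPM and the GTPase sum 6244 CPM there. Of the antiviral effectors, Oas3 had 1070 CPM, Oasl2 711, Trim30a 721, Ly6e 1161, Parp14 876, Dtx3l 894, Sp100 175 and Pml 942 CPM. Of sensors and factors, Dhx58 had 260.3 CPM, Ifih1 192, Irf7 382 and Stat2 427 CPM. Of the GTPases, Igtp had 1037 CPM, Ifi47 558, Gbp2 1078, Gbp3 431 and Gbp7 1476 CPM. Tap1 had 959 CPM, Psmb8 266, Psmb9 288, Cxcl9 135 and Cxcl10 502 CPM. In that library the macrophage markers summed to 147 CPM, within the range of the other 5 day-10 libraries, while plasmacytoid dendritic cell markers (354 CPM) and cycling genes (1042 CPM) summed highest there; their part was not tested.

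The other 22 values were spread over 6 groups. At day 6, replicate 1 had the highest Oasl2 (60.7 CPM) and the lowest Irf9 (59.6 CPM). In untreated HSCs, Trim30a was highest in replicate 2 (257 CPM), Igtp highest in replicate 1 (105 CPM) and Dtx3l lowest in replicate 3 (229 CPM). In cultured HSCs, Psmb8 was lowest in replicate 1 (114 CPM), Cxcl9 highest in replicate 2 (2.06 CPM) and Cxcl10 highest in replicate 3 (9.8 CPM). In uncultured HSCs, replicate 4 had the lowest type I sum (2991 CPM) and the lowest Oasl2 (65.5 CPM). Replicate 1 there had the highest Trim30a (254 CPM) and Gbp2 (76.8 CPM), replicate 2 the highest Irf1 (214 CPM) and Cxcl10 (3.85 CPM), and replicate 3 the highest Cxcl9 (2.52 CPM). In CD48+ HPCs, replicate 3 had the highest Lgals3bp (464 CPM), Cxcl9 (38 CPM) and Cxcl10 (6.73 CPM). In CD48- HSCs, Ly6e was lowest in replicate 3 (272 CPM), Gbp3 lowest in replicate 4 (35.1 CPM), and Cxcl9 (3.26 CPM) and Cxcl10 (16.1 CPM) highest in replicate 1.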

How the results depend on the processing

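The counts of called genes depended on which libraries shared a fit. With the compared groups alone, 19 genes were higher at day 10 against untreated HSCs, where 16.8% of all genes were. At day 6, 4 were higher, where 27% of all genes were, and 25 lower, where 27.7% were. For the other settings of this paragraph the shares of all genes are not given. A shift of these genes and one of all genes cannot be told apart there. With all 30 libraries in 1 fit, day 6 had 1 higher and 7 lower, culture 3 higher and 8 lower, and CD48+ HPCs 0 higher and 2 lower than CD48- HSCs. With the replicate number as a block, 31 were higher at day 10 against untreated HSCs, and day 6 had 3 higher and 20 lower. Same-numbered libraries did not deviate together (correlations of -0.19 to 0.13). These values cannot exclude a pairing that acts on few genes, and the labels do not state one. At day 6, 1 gene was higher with no filter, 1 with unique reads and 1 with DESeq2. In CD48+ HPCs 0 were higher with unique reads and 2 with DESeq2. Psmb8, the 1 gene higher there in the main fit, had 0 unique reads and could not be tested with them. The cause of the other shifts was not tested.

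With 1 library left out at a time, the counts were 15 to 38 higher at day 10 against untreated HSCs, 3 to 4 lower at day 6, 30 to 42 higher at day 10 against day 6, 6 to 10 higher and 16 to 22 lower in culture, and 1 higher and 11 to 27 lower in CD48+ HPCs. Of these fits, shares of all genes are given only for those without day-10 replicate 6. No class median changed sign in the 154 values under other settings. Of 2159 log2 changes of described genes under other settings, 1946 kept their call, 149 lost it and 64 gained one. Depth limits Cxcl9, Cxcl10 and Ifit3, whose lowest libraries are near 3 reads, and shared reads limit the genes named for low unique shares.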
